A study of Mus musculus with 5 samples.

Results

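Long cassette exons were followed in the left ventricle of C57BL/6 mice, with and without streptozotocin, a compound that kills pancreatic beta cells and so models type 1 diabetes. A cassette exon is an internal exon that a transcript either holds or skips. The exons described here are those of at least 300 nt that were present in all 6 deposited comparison tables, 240 of 6331 exons (230 separate loci in 227 genes). Their median length was 497.5 nt and the longest had 5916 nt. The edge of the set held 1 exon of exactly 300 nt, in Ormdl2, with a mean Psi of 0.575 ± 0.163 (SD, n = 2) in Control and 0.743 ± 0.0751 (SD, n = 3) in STZ. The nearest exon outside it was 298 nt in Trim46 (0.35 ± 0.17 and 0.467 ± 0.202), which had too few reads to be tested. Exons of 297 nt followed in Nectin3 (0.965 ± 0.00707 and 0.86 ± 0.0721), Pira2 (0.965 ± 0.0212 and 0.957 ± 0.00577) and Sept4 (0.165 ± 0.0212 and 0.437 ± 0.107).

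All mice were sampled at 12 weeks of age after 5 days of injections that began at 8 weeks. The 2 Control samples had received citrate buffer, and the 3 STZ samples had received streptozotocin at 70 mg/kg. The libraries carry codes and were placed in the groups from the group sizes alone, as 2 against 3. The codes form a pair of name series that split the same way, so a difference in handling between the series and the effect of streptozotocin cannot be told apart. The labels do not say that each sample is a separate mouse, and the p-values then measure the spread between these samples. The tables hold no expression values. Reads of all classes summed to 17154734 and 20963751 in Control and to 12692236 to 14913419 in STZ, and read counts below are not scaled to these totals. In bulk tissue a change in the mix of cells and a change within cells cannot be told apart. Among the exons were those of titin and striated-muscle kinase Speg, and a titin exon of 303 nt alone held between 29255 and 67681 inclusion-only reads per library.

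The splicing machinery of vertebrates usually recognises an exon as a unit across its own length, and most internal exons are short, so long internal exons are uncommon and often carry enhancer sequences bound by SR proteins. A long cassette exon can add a large stretch of protein, or it can carry a stop codon. Exons of the second kind, known as poison exons, send the transcript to nonsense-mediated decay, and genes of SR proteins and related factors are known to use them to limit their own output. In the heart, splicing of sarcomere and cytoskeletal transcripts is a known part of postnatal maturation and of disease.

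The sequences below show how early the reading frame ends in 5 of the long exons whose inclusion differed between the groups, and the motif content of another. They were read from GENCODE M21 transcripts (GRCm38) and are written 5′ to 3′ on the transcript strand, counted from base 1 at the 5′ end of the exon. Capitals mark the in-frame stop codon in all but the last line. The first 4 lines start at base 1 of exons that GENCODE assigns to decay transcripts. The Rbm4 line covers bases 615 to 674 of an exon of a protein-coding transcript, where only 8 bases follow the stop. The Phf14 line covers bases 84 to 203 of a coding exon, and there capitals mark GAAGAA, a purine-rich hexamer of the kind bound by Tra2 proteins.
Srsf3, 456 nt: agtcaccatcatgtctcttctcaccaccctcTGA
Srsf7, 460 nt: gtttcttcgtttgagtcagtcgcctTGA
Tra2b, 397 nt: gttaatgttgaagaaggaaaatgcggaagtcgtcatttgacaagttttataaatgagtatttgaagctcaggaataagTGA
Socs2, 523 nt: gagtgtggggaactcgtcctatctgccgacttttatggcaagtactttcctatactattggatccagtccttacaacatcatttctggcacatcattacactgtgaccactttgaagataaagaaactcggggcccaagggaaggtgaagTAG
Rbm4, 682 nt: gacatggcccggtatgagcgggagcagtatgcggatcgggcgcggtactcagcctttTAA
Phf14, 767 nt: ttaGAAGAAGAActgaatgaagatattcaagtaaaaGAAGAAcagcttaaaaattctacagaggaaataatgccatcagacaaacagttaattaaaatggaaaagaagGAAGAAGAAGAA

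Inclusion is given as Psi, the authors' estimate of the fraction of transcripts that hold the exon. Tests were run on exons with at least 10 informative reads in each library, meaning reads that fit the including isoform alone (inclusion-only) or the skipping isoform alone (exclusion-only). Of the 240 long exons, 222 were tested and 18 had too few reads. Logit Psi was compared between STZ and Control in limma over all 4769 tested exons, and an exon is called higher or lower at a Benjamini-Hochberg adjusted p under 0.05. Of all tested exons 15% were called, 4.84% as higher and 10.1% as lower in STZ. Among the long exons 25 of 222 (11.3%) were called, 13 higher and 12 lower, and among shorter exons 688 of 4547 (15.1%), 218 higher and 470 lower. The split of the long exons moved with the scale. When the share of inclusion-only reads among informative reads (the read share) was tested in place of Psi, 21 were higher and 30 lower. Over all 4769 tested exons the read share called 313 higher and 653 lower. With Psi clipped at 0.05, 11 long exons were higher and 3 lower. At an unadjusted p under 0.05 in limma, 29 long exons were higher and 40 lower, beside 488 and 1039 of all tested exons. No test compared long and shorter exons, since exons of a gene and of a library are not independent. The Control and STZ libraries did not overlap in Psi at 96 long exons (43.2%), 39 higher and 57 lower in STZ, beside 42.9% of all tested exons (14.1% higher and 28.8% lower). The share of long exons that stood apart was thus near the background.

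Of the 13 long exons called higher, 10 rose by at least 0.10 in Psi, and of the 12 called lower, 4 fell by at least that much. Over all tested exons these counts were 146 of 231 called higher and 339 of 482 called lower, and the difference was not tested. The median change over the 222 tested long exons was -0.00667, beside -0.01 over all tested exons, and the median size of the change was 0.0333, beside 0.035. A second count used the authors' own columns and took exons whose difference reached 0.20 with 1 sign, and whose Bayes factor reached 10, in each of the 6 pairs of a Control and an STZ library. It held 3.22% of all 6331 exons (1.07% higher and 2.15% lower). It held 8 long exons, in Wiz, Mtf2, Srsf7, Tra2b, Rbm4, Srsf3, Palld and the non-coding Mir99ahg, all higher in STZ, and 0 that were lower.

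**Figure D1:**
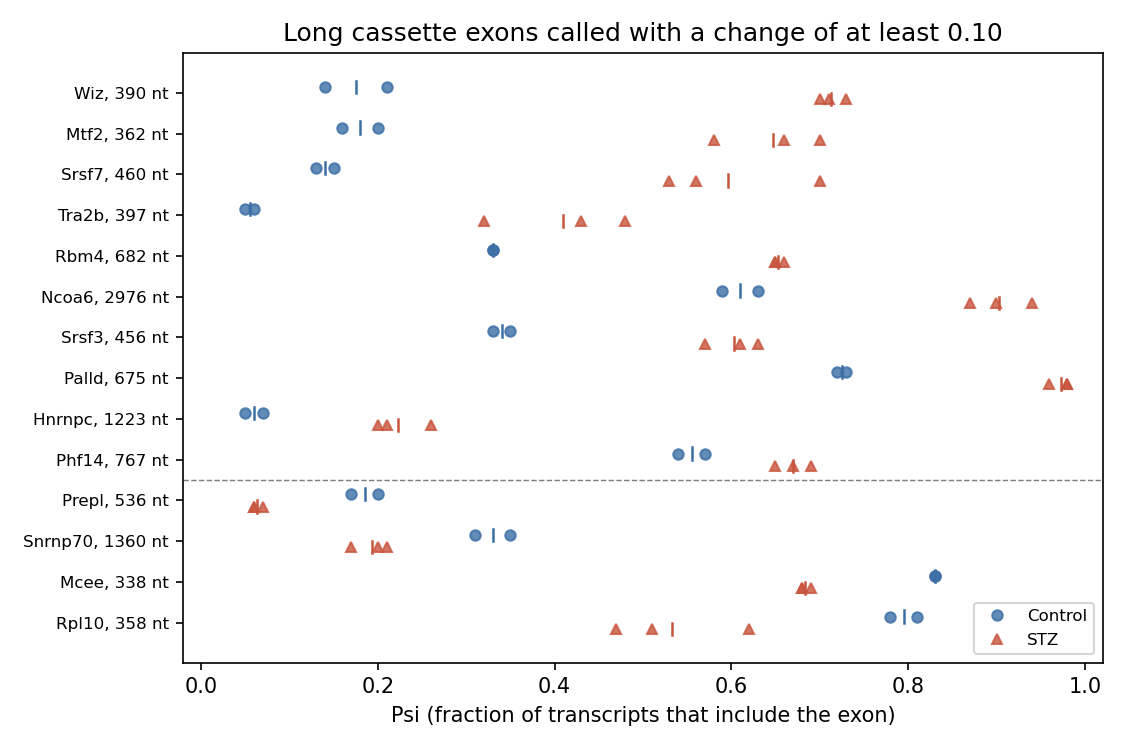
Psi (x axis, fraction of transcripts that include the exon) of the 14 called long exons that changed by at least 0.10, in each library, with a circle for each of the 2 Control libraries, a triangle for each of the 3 STZ libraries and a short bar for each group mean. Exons above the dashed line were called higher in STZ and those below it lower, and the widest gap is that of Wiz, from 0.175 to 0.713.

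Of the gene lists, that of RNA-binding proteins held the most called long exons. Of 13 long exons in a list of RNA binding and splicing genes, all tested, 4 rose (Srsf3, Srsf7, Tra2b and Hnrnpc) and 3 fell (Snrnp70 and 2 overlapping exons of Rbm6). At an unadjusted p under 0.05 the counts were 4 and 4, and by the read share 4 and 1, where none of the 3 falls passed. The list was drawn up with results of these data known and is no independent evidence. Its median change was 0, beside -0.01 over all tested exons. In the shorter exons of the same list 24 of 140 rose and 26 fell. Rbm4, which also encodes an RNA-binding splicing regulator, was outside the list.

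Srsf7 encodes an SR protein that promotes exon inclusion and takes part in mRNA export, and its 460-nt exon (mm9, chr17:80603962-80604421, minus strand) ends the reading frame 28 bases in, at the TGA shown above. Psi was 0.15 and 0.13 in Control A and B and 0.70, 0.56 and 0.53 in STZ A, B and C. All 3 STZ libraries lay far above both Control libraries, and they varied more among themselves. The mean rose from 0.14 ± 0.0141 (SD, n = 2) to 0.597 ± 0.0907 (SD, n = 3), a logit change of 2.22 with a standard error of 0.27 (limma, adjusted p = 0.023). Inclusion-only reads were 485 and 486 in Control and 2119, 1541 and 1373 in STZ, and exclusion-only reads were 103 and 143 against 28, 40 and 37. Reads of the including isoform were thus more numerous in STZ while those of the skipping isoform were fewer. A 36-nt exon of the same gene had a mean Psi of 0.9 in Control and 0.927 in STZ (limma, adjusted p = 0.274). Without Control A, Control B, STZ B or STZ C the 460-nt exon was no longer called, at adjusted p of 0.103, 0.119, 0.0755 and 0.0612.

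Tra2b encodes a splicing activator that binds purine-rich GAA repeats, and its second exon of 397 nt (chr16:22258938-22259334, minus strand) reaches the TGA after 81 bases. It holds 4 matches to GAAGAA. Psi was 0.06 and 0.05 in Control and 0.48, 0.43 and 0.32 in STZ, so every STZ library exceeded both Control libraries at least severalfold. The mean rose from 0.055 ± 0.00707 (SD, n = 2) to 0.41 ± 0.0819 (SD, n = 3), a logit change of 2.48 with a standard error of 0.24 (limma, adjusted p = 0.0162). Exclusion-only reads were 260 and 409 in Control and 98, 89 and 106 in STZ, while inclusion-only reads were 164 and 168 in Control and 868, 715 and 486 in STZ. A 276-nt version with the same 5′ end rose as well, from 0.06 ± 0.0141 to 0.53 ± 0.0917 (adjusted p = 0.0159), and the 2 versions share reads. The 397-nt exon was no longer called without Control A, Control B or STZ B (adjusted p of 0.0817, 0.0898 and 0.0671).

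Srsf3 encodes the smallest SR protein, with roles in splicing and export, and its 456-nt exon (chr17:29176399-29176854, plus strand) ends the frame at base 34. Psi was 0.35 and 0.33 in Control and 0.61, 0.63 and 0.57 in STZ, and the libraries of a group were close to each other. The mean rose from 0.34 ± 0.0141 to 0.603 ± 0.0306 (SD, n = 2 and 3; limma, adjusted p = 0.0126). Exclusion-only reads were 150 and 184 in Control and 144, 137 and 125 in STZ, while inclusion-only reads were 968 and 1064 against 2661, 2928 and 2092, so the wider gap was in the including reads. The call was lost when Control A (adjusted p = 0.0669) or Control B (0.0711) was left out. The 503-nt exon of Srsf1, a further SR protein gene, was at 0.94 in both Control libraries and at 0.90, 0.94 and 0.94 in STZ (adjusted p = 0.652).

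The 682-nt exon of Rbm4 (chr19:4787361-4788042, minus strand) carries the end of the reading frame close to its 3′ end. Psi was 0.33 in both Control libraries and 0.66, 0.65 and 0.65 in STZ. It had the tightest replicates of the large rises, and the mean went from 0.33 ± 0 (SD, n = 2) to 0.653 ± 0.00577 (SD, n = 3; limma, adjusted p = 0.00118). Exclusion-only reads were 192 and 248 in Control against 40, 45 and 39 in STZ, and inclusion-only reads were 331 and 416 against 292, 252 and 219. Here fewer skipping reads, rather than more including reads, accompanied the higher Psi. The call held without any one library. Psi is deposited to 2 decimals, so an SD of 0 means a spread under that step. The annotated gene Gm21992 overlaps this exon on the same strand, so reads of the 2 genes cannot be separated.

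Hnrnpc encodes a nuclear protein that binds uridine tracts and packages new transcripts, and its 1223-nt exon (chr14:52716997-52718219, minus strand) lies in untranslated sequence. Psi was 0.07 and 0.05 in Control and 0.26, 0.21 and 0.20 in STZ, and the mean rose from 0.06 ± 0.0141 to 0.223 ± 0.0321 (SD, n = 2 and 3; limma, adjusted p = 0.0209). Exclusion-only reads were 1165 and 1576 in Control and 578, 571 and 532 in STZ, and inclusion-only reads 551 and 505 against 1248, 960 and 839. Shorter events at the same place differed in direction. A 26-nt exon fell from 0.64 to 0.347 (adjusted p = 0.0159). The means of a 229-nt exon were 0.765 and 0.953 (adjusted p = 0.107). The call of the 1223-nt exon was lost without any 1 of the 5 libraries, at adjusted p of 0.051 to 0.083.

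Snrnp70 encodes a core protein of the U1 snRNP, which recognises the 5′ splice site, and its 1360-nt exon (chr7:52637195-52638554, minus strand) belongs to a transcript annotated without a reading frame. Psi was 0.31 and 0.35 in Control and 0.17, 0.20 and 0.21 in STZ, and the mean fell from 0.33 ± 0.0283 to 0.193 ± 0.0208 (SD, n = 2 and 3; limma, adjusted p = 0.0346). It moved opposite to the exons of Srsf3, Srsf7 and Tra2b. Leaving out any 1 library ended this call (adjusted p of 0.0599 to 0.145), as did the read share (0.0991) and a clip of Psi at 0.05 (0.052). An 80-nt exon of the gene also fell, from 0.075 to 0.0233 (adjusted p = 0.0285). A 60-nt version with the same 5′ end as the 1360-nt exon did not, with means of 0.055 and 0.06 (limma, adjusted p = 0.98).

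The 2 overlapping exons of Rbm6, an RNA-binding protein gene, share 1 locus. The 1279-nt exon fell from 0.97 in both Control libraries to 0.90, 0.93 and 0.92 (limma, adjusted p = 0.0243), and the 1550-nt exon from 0.95 in both to 0.92, 0.92 and 0.90 (adjusted p = 0.0386). Neither had a single exclusion-only read, with 0 of 8295 and 0 of 8391 informative reads, which allows a share of up to 0.0362% and 0.0358% (3 counts of the total, counting error only). The fall in Psi therefore was not visible in the reads of the skipping isoform. The 1279-nt exon lost its call without either Control library or STZ C (adjusted p at most 0.122), as did the 1550-nt exon without Control A, Control B, STZ A or STZ B (up to 0.169). A clip at 0.05 (0.131 and 0.0602), untransformed Psi (0.0543 and 0.0654) and the read share (0.187 and 0.145) ended both calls. The other members of the list were not called: Edc3, an mRNA decapping factor, was at 0.765 ± 0.0919 and 0.517 ± 0.0404 (0.0771), while Matr3, Mbnl1, Rbm41 and Ythdf2 differed by at most 0.015 between the group means.

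**Figure D2:**
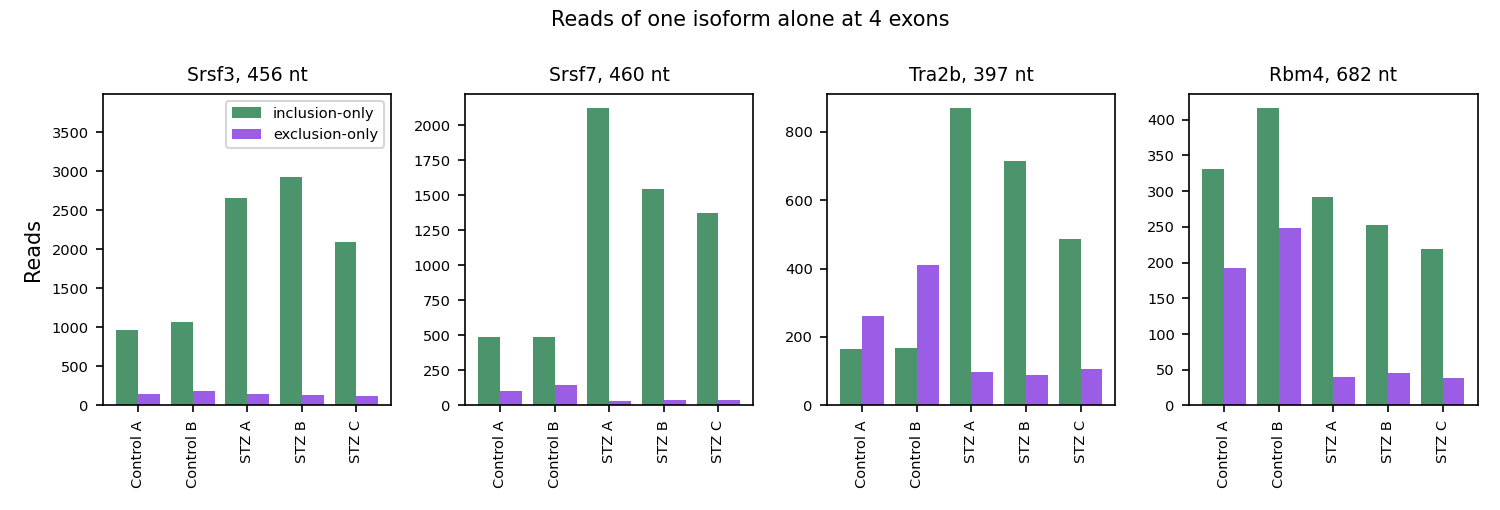
Inclusion-only and exclusion-only reads (y axis, reads, own scale for each panel) in the 5 libraries at the long exons of Srsf3, Srsf7, Tra2b and Rbm4. Inclusion-only reads are higher in STZ at the first 3 exons, and at Rbm4 exclusion-only reads are lower, at 192 and 248 against 39 to 45.

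Chromatin and transcription genes held the largest rise of all. Of 16 long exons of that list 15 were tested, 3 rose (Wiz, Mtf2 and Ncoa6) and 0 fell in limma (5 and 1 at an unadjusted p under 0.05, 4 and 1 by the read share), with a median change of 0.055, beside -0.01 over all tested exons. The list too was drawn up with earlier results known. In its shorter exons 12 of 160 rose and 26 fell.

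Wiz encodes a zinc finger protein that works with the histone methyltransferases G9a and GLP, and its 390-nt exon (chr17:32496983-32497372, minus strand) is coding throughout. Psi was 0.14 and 0.21 in Control and 0.73, 0.70 and 0.71 in STZ. The groups were far apart, and the mean rose from 0.175 ± 0.0495 (SD, n = 2) to 0.713 ± 0.0153 (SD, n = 3), a logit change of 2.48 with a standard error of 0.18 (limma, adjusted p = 0.00922). Exclusion-only reads were 81 and 128 in Control and 7, 14 and 13 in STZ, and inclusion-only reads 52 and 120 against 206, 227 and 237. Both kinds of read moved, in opposite directions, and the call held without any one library. Neither of the shorter Wiz exons was called: the 171-nt exon had means of 0.63 and 0.57 (adjusted p = 0.522), and the 73-nt exon 0.53 and 0.337 (adjusted p = 0.108).

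Mtf2 encodes a Polycomb-like protein that recruits the repressive complex PRC2, and its 362-nt exon (chr5:108498181-108498542, plus strand) belongs to a transcript without an annotated reading frame. Psi was 0.20 and 0.16 in Control and 0.58, 0.66 and 0.70 in STZ, and the mean rose from 0.18 ± 0.0283 to 0.647 ± 0.0611 (SD, n = 2 and 3; limma, adjusted p = 0.0162). A 202-nt version with the same 5′ end rose from 0.33 ± 0.0566 to 0.897 ± 0.0115 (adjusted p = 0.0066). Reads were few, with 43 to 71 inclusion-only reads in every library and 49 and 60 exclusion-only reads in Control against 10, 5 and 7 in STZ. The inclusion-only reads of the groups overlapped, while the exclusion-only reads did not. Without Control A, Control B, STZ B or STZ C the adjusted p was 0.0728, 0.0844, 0.067 and 0.05.

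Ncoa6 encodes a coactivator of nuclear receptors, and its coding exon of 2976 nt (chr2:155231211-155234186, minus strand) is among the longest measured. Psi was 0.59 and 0.63 in Control and 0.90, 0.87 and 0.94 in STZ, and the mean rose from 0.61 ± 0.0283 to 0.903 ± 0.0351 (SD, n = 2 and 3; limma, adjusted p = 0.0376). The skipping isoform rested on 8 and 9 reads in Control and 0 of 6106 informative reads in STZ, which allows a share of up to 0.0491%. Skipping reads were thus few beside inclusion-only reads of 1884 to 3564 per library, and how far the rise in Psi rested on them was not tested. The call was lost without Control A, Control B, STZ A or STZ B, at adjusted p of up to 0.161, and with Psi clipped at 0.05 (0.0591).

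Phf14, a PHD finger gene outside the list, had a coding exon of 767 nt (chr6:11883253-11884019, plus strand) that rose from 0.54 and 0.57 to 0.69, 0.65 and 0.67 (limma, adjusted p = 0.035), a call lost without any 1 library (0.0681 to 0.137), by the read share (0.133) and with Psi clipped at 0.05 (0.0508). This exon held 8 matches to GAAGAA, 6 of them in the window printed above. Among exons of the list that missed the threshold, the 411-nt exon of Dbp, a clock-controlled transcription factor, was at 0.64 and 0.70 in Control and 0.90, 0.87 and 0.82 in STZ (adjusted p = 0.0634). The poison exon of Brd2, a bromodomain protein gene, reaches its stop codon within 6 bases of its 301 nt. Its Psi was 0.65 and 0.66 in Control and 0.61, 0.61 and 0.65 in STZ (adjusted p = 0.292), although its inclusion-only reads were 758 and 1039 against 3049, 2396 and 2398. Exclusion-only reads there were also more numerous, at 29 and 46 against 157, 117 and 103, so the balance differed little. In 9 long exons of zinc finger genes chosen by symbol, 8 tested, 0 were called in limma (2 were lower at an unadjusted p under 0.05 and 2 by the read share), among them Zfp638, at 0.875 ± 0.0212 and 0.63 ± 0.122 (adjusted p = 0.104), and Zfp106, at 0.84 ± 0.0141 and 0.703 ± 0.0586 (adjusted p = 0.0913).

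Sarcomere, Z-disc and cytoskeleton genes held 8 long exons, all tested, of which 1 rose and 0 fell in limma (1 and 3 at an unadjusted p under 0.05, 0 and 1 by the read share). Palld encodes palladin, an actin-binding scaffold, and its coding exon of 675 nt (chr8:64028368-64029042, minus strand) had a Psi of 0.72 and 0.73 in Control and 0.96, 0.98 and 0.98 in STZ. The mean rose from 0.725 ± 0.00707 to 0.973 ± 0.0115 (SD, n = 2 and 3; limma, adjusted p = 0.0173). Exclusion-only reads were 1 and 3 in Control and 0, 1 and 0 in STZ, and the share of inclusion-only reads among informative reads did not pass the test (adjusted p = 0.729). Skipping reads were too few to show a difference at this depth. Inclusion-only reads were 2447 and 3318 in Control and 1782, 1065 and 852 in STZ. The call was lost without Control A, Control B, STZ B or STZ C (adjusted p of 0.0924, 0.0952, 0.065 and 0.0641). An 80-nt version with the same 5′ end did not rise. Its means were 0.86 ± 0.0283 in Control and 0.797 ± 0.112 in STZ (SD, n = 2 and 3, limma, adjusted p = 0.79).

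The titin exon of 303 nt (chr2:76543727-76544029, minus strand) was included at 0.99 and 1.00 in Control and 0.99 in each STZ library. A second titin exon, of 2646 nt (chr2:76745365-76748010), had 0.90 and 0.92 in Control and 0.83, 0.71 and 0.56 in STZ (limma, adjusted p = 0.138), with 1 exclusion-only read in all. The groups did not overlap there, but the STZ libraries were spread widely. Epb41, the gene of a membrane skeleton protein of red cells and other tissues, had a 450-nt exon at 0.58 and 0.63 against 0.40, 0.48 and 0.44 (adjusted p = 0.0539), with many reads of both isoforms. Its exclusion-only reads were 195 and 230 in Control and 614, 466 and 371 in STZ. The long exons of Speg (means of 0.99 and 0.973, adjusted p = 0.115) and Macf1 (0.97 and 0.977, 0.757) were not called.

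The longest exon and the one with most reads was that of Naca (5916 nt, chr10:127476227-127482142, plus strand), which turns the alpha chain of the nascent polypeptide-associated complex into the muscle form skNAC. Psi was 0.60 and 0.68 in Control and 0.85, 0.80 and 0.78 in STZ, so the groups did not overlap. The means of 0.64 ± 0.0566 and 0.81 ± 0.0361 (SD, n = 2 and 3) missed the threshold (limma, adjusted p = 0.0714). Inclusion-only reads were 46914 and 73702 in Control and 130740, 90683 and 65620 in STZ, and exclusion-only reads 226 and 252 against 178, 143 and 120. By the share of inclusion-only reads the exon passed (adjusted p = 0.0487). The next longest exons were those of Vcan, the proteoglycan versican, and Tacc2, a centrosomal coiled-coil protein. The 5217-nt Vcan exon had means of 0.815 and 0.78 (adjusted p = 0.92), its 2880-nt exon 0.06 and 0.0633 (adjusted p = 0.909), and the 5121-nt Tacc2 exon 0.96 and 0.877 (adjusted p = 0.22). Of 20 tested exons of 2000 nt or more, 1 was called, that of Ncoa6, while 3 were higher and 2 lower at an unadjusted p under 0.05 and 2 and 4 by the read share.

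**Figure D3:**
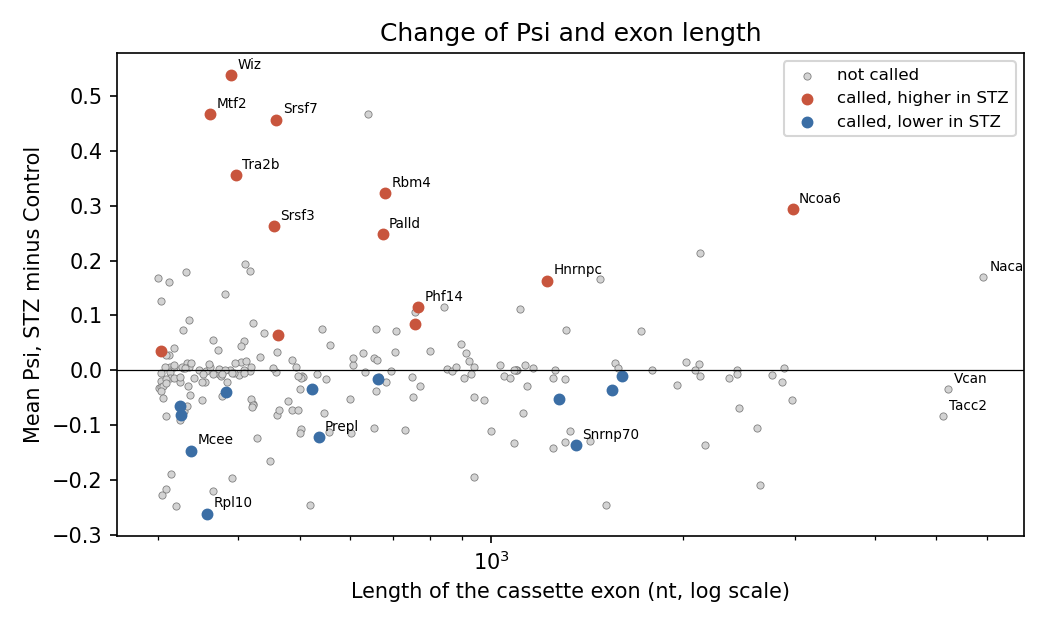
Change of mean Psi (y axis, STZ minus Control) against the length of the exon (x axis, nt, log scale) for the 222 tested long exons, with exons called higher in red, called lower in blue and others in grey. The changes of at least 0.35 that were called (Wiz, Mtf2, Srsf7 and Tra2b) lie between 362 and 460 nt.

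Of 5 long exons in mitochondria and metabolism genes 0 were called in limma (1 was lower at an unadjusted p under 0.05 and 1 by the read share). The coding exon of 1305 nt in Cpt2, which imports long-chain fatty acids into mitochondria, had 0.79 and 0.89 in Control and 0.93, 0.62 and 0.58 in STZ (limma, adjusted p = 0.749), so the groups overlapped. Outside that list Mcee, the methylmalonyl-CoA epimerase of propionate catabolism, had a coding exon of 338 nt (chr7:71545055-71545392, plus strand) at 0.83 in both Control libraries and 0.68, 0.69 and 0.68 in STZ. The mean fell from 0.83 ± 0 to 0.683 ± 0.00577 (SD, n = 2 and 3; adjusted p = 0.00118), and the call held without any one library but not by the read share (0.0808). Inclusion-only reads were 5468 and 6682 in Control and 2089, 2848 and 2392 in STZ, with exclusion-only reads at 337 and 458 against 270, 319 and 307. These raw reads are not scaled to the depth, which was lower in STZ. A 176-nt version fell from 0.75 to 0.583 (adjusted p = 0.0107).

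Prepl encodes a serine hydrolase related to prolyl oligopeptidase, and its 536-nt exon (chr17:85487680-85488215, minus strand) holds a start of the reading frame. Psi was 0.20 and 0.17 in Control and 0.06, 0.06 and 0.07 in STZ, and the mean fell from 0.185 ± 0.0212 to 0.0633 ± 0.00577 (SD, n = 2 and 3; limma, adjusted p = 0.0107). Inclusion-only reads were 1165 and 1670 in Control and 198, 99 and 90 in STZ, the steepest difference in reads among the falls. Without STZ B the adjusted p was 0.0518. The largest fall in Psi among the called long exons was that of a 358-nt exon of Rpl10, a ribosomal protein gene (chrX:71516700-71517057, plus strand), from 0.78 and 0.81 to 0.62, 0.47 and 0.51 (adjusted p = 0.0477). It was lost without Control A, Control B, STZ B or STZ C (up to 0.202), with Psi clipped at 0.05 (0.0743) or untransformed (0.0598), and with no minimum of reads or a single prior variance (0.0512 each). A 59-nt version with the same 3′ end had a mean Psi of 1 in Control and in STZ and was not called. Ribosomal protein genes have many near-identical copies, and how reads were shared among them was not examined.

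The remaining calls were small and lay near an end of the Psi scale. Among those higher in STZ were Ankhd1 (0.865 to 0.95, limma, adjusted p = 0.0281) and Asb1 (0.945 to 0.98, 0.0107), a substrate adaptor of ubiquitin ligases. Among those lower were Angel2 (0.965 to 0.883, 0.0265), Dsn1 (0.965 to 0.9, 0.0429), Kif2a (0.05 to 0.01, 0.0161), Socs2 (0.045 to 0.01, 0.00844) and Lzts2 (0.99 to 0.973, 0.0388). The Socs2 exon, of a gene that restrains growth hormone signalling, is the decay exon printed above. At Dsn1, a kinetochore gene, 0 of 165 reads were exclusion-only, which allows a share of up to 1.82%. Asb1 and Socs2 were called without any one library, but with Psi clipped at 0.05 neither was (adjusted p of 0.563 and 1), and Socs2 was not called on untransformed Psi (0.0959) or by the read share (0.149). By the read share Ankhd1 (0.0605) and Dsn1 (0.441) were not called either. The clip at 0.05 ended the calls of Dsn1 (0.0948), Kif2a (0.564) and Lzts2 (1), and untransformed Psi did so at 0.0904, 0.107 and 0.0804. Dsn1 also missed the threshold with no minimum of reads (0.0526). Kif2a did not reach a minimum of 20 informative reads in every library and was not tested under that setting. The call of Ankhd1 was lost without Control A, Control B, STZ A or STZ B (up to 0.128), of Kif2a without any 1 STZ library (up to 0.0651), of Lzts2 without any library but STZ B (up to 0.17), and of Angel2 and Dsn1 without any 1 library (up to 0.105 and 0.171).

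Mir99ahg, the host gene of a microRNA cluster on chromosome 16, held a 641-nt exon that passed the count by the authors' columns but not limma. Psi was 0.17 and 0.19 in Control and 0.73, 0.75 and 0.46 in STZ (adjusted p = 0.0675), with STZ C well below the other STZ libraries, and without STZ C the adjusted p was 0.0163. Exclusion-only reads were 31 and 36 in Control and 0, 0 and 1 in STZ. In membrane, ion transport and signalling genes 0 of 6 long exons were called in limma (1 was lower at an unadjusted p under 0.05 and 0 by the read share), including Pecam1, an endothelial adhesion molecule (0.955 and 0.917, adjusted p = 0.0566). In membrane traffic, ubiquitin and lysosome genes 0 of 10 were called in limma (1 was lower at an unadjusted p under 0.05, but 5 by the read share), including Plekhm1, a lysosome positioning adaptor (0.96 and 0.763, adjusted p = 0.117), and 2 overlapping exons of the deubiquitinase gene Cyld.

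Called exons were also counted by the place of the exon in its transcript. Over all tested exons 4.84% were called higher and 10.1% lower in STZ. Of 25 long exons in which the reading frame ends, 23 were tested, 4 rose (Srsf3, Srsf7, Tra2b and Rbm4) and 1 fell (Socs2), with 5 and 2 both at an unadjusted p under 0.05 and by the read share. A stop codon was found by script in 24 of them, 21 in decay transcripts, at a median of 105 bases from the start of the exon (6 to 756). Their median Psi in Control was 0.34. Of 59 exons that hold the start of the frame, 54 were tested, 0 rose and 3 fell in limma (4 and 9 at an unadjusted p under 0.05, 3 and 14 by the read share), with a median Control Psi of 0.927, and of 103 coding throughout, 98 were tested, 6 rose and 5 fell (9 and 21 at an unadjusted p under 0.05, 5 and 9 by the read share), with 0.91. Among exons under 300 nt in which the frame ends, 34 of 365 rose and 36 fell. Of those that hold its start 11 of 241 rose and 25 fell, and of those coding throughout 89 of 2828 rose and 304 fell. These counts describe the exons, and no difference between classes was tested.

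**Figure D4:**
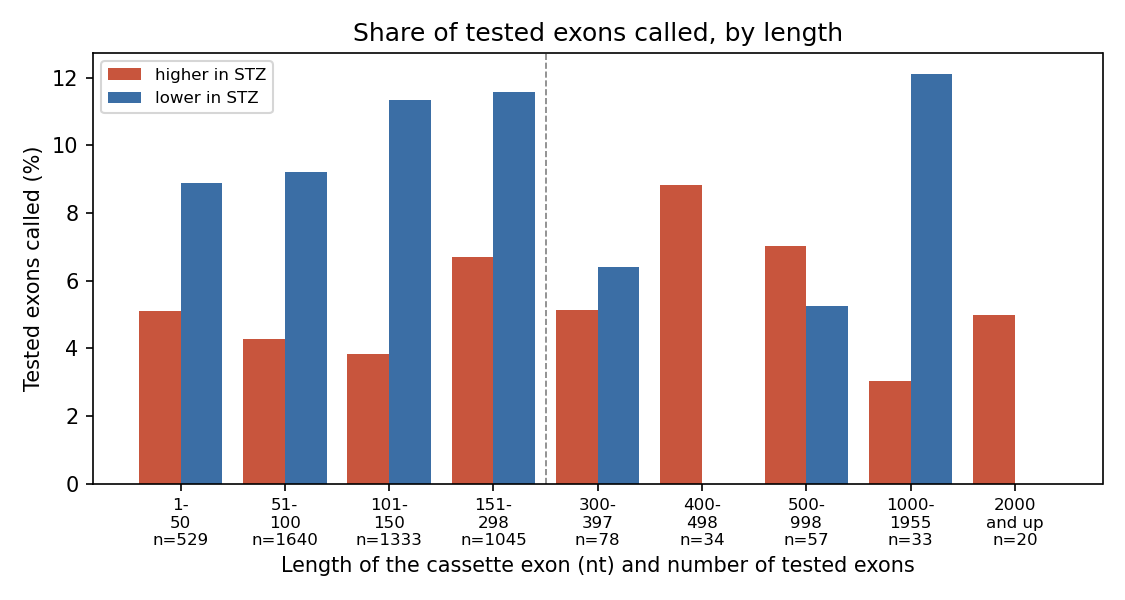
Share of tested exons called (y axis, percent) higher (red) and lower (blue) in STZ, by length of the exon (x axis, nt, with the number tested), with a dashed line at the limit of 300 nt. Among the long exons the shares rest on 1 to 5 exons a bar or on none, and the bands from 400 to under 500 nt and from 2000 nt up held no call that was lower.

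By length, 4 of 78 tested exons from 300 to under 400 nt rose and 5 fell (7 and 9 by the read share). From 400 to under 500 nt 3 of 34 rose and 0 fell in limma (7 and 6 at an unadjusted p under 0.05, 5 and 3 by the read share), from 500 to under 1000 nt 4 of 57 rose and 3 fell (4 and 8 by the read share), and from 1000 to under 2000 nt 1 of 33 rose and 4 fell (3 and 6 by the read share). Lengths divisible by 3 made up 44.2% of the long exons and 46.5% of the shorter ones, and 18 of the 22 exons of 2000 nt or more (81.8%). The introns beside long exons were longer, with a median of 3834.5 nt upstream and 2690 nt downstream, beside 1935 and 1829 nt for shorter exons. The hexamer GAAGAA, searched on the transcript strand with overlapping matches counted, was in 43.9% of the 223 long exons matched to GENCODE and in 9.52% of shorter ones. Per kilobase the long exons held 1.14 matches and the shorter ones 1.01. The 13 long exons that rose held 2.02 matches per kilobase, most of them in Phf14 (8), Ankhd1 (5) and Tra2b (4), and the 12 that fell held 1.3. A match describes the letters and is no evidence of binding.

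Numbers of reads were also set beside those of all tested exons. Informative reads per tested long exon had a median of 319 to 757.5 per library, beside 94 to 192 over all tested exons, and the sum over long exons ran from 297509 in STZ C to 582733 in Control B. Nearly all were inclusion-only, 391768 of 416219 in Control A. Exclusion-only reads had a median of 3 to 5, no more than the 4 to 5 of all exons. Skipping is seen at 1 junction whatever the length, and whether this accounts for the medians was not tested. Of the 222 tested long exons 83 (37.4%) had under 10 exclusion-only reads over the 5 libraries and 33 (14.9%) had none, beside 37% and 13.8% of all tested exons. The share of inclusion-only reads exceeded Psi, which takes length into account, by a median of 0.0837 in Control and 0.097 in STZ, beside 0.05 and 0.0747 over all exons. Of the 139 tested long exons with at least 10 exclusion-only reads, 11 rose and 9 fell, and of the 83 with fewer, 2 rose and 3 fell. Shorter exons were also called less often with few such reads. With at least 10, 196 of 2867 rose and 387 fell, and with fewer, 22 of 1680 rose and 83 fell. By the read share, 16 of the 25 called exons passed in the same direction.

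**Figure D5:**
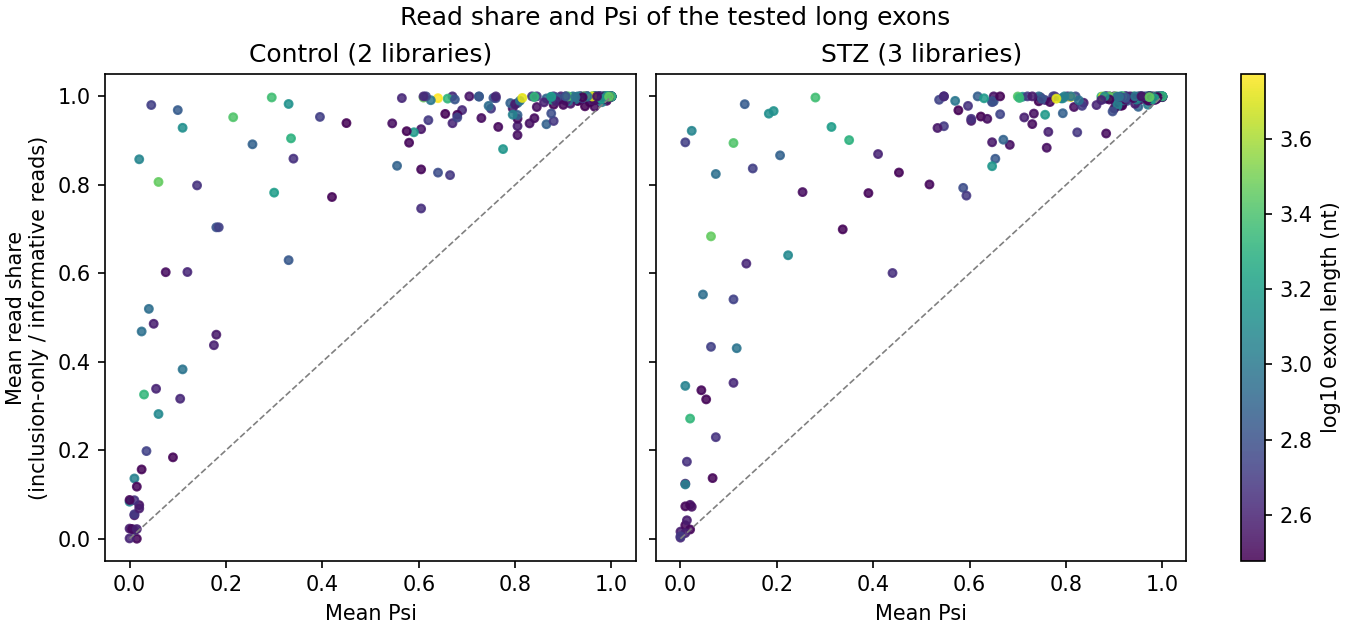
Mean share of inclusion-only reads among informative reads (y axis, fraction) against mean Psi (x axis, fraction) of the 222 tested long exons in Control (left) and STZ (right), coloured by log10 of the exon length, with the line of equality dashed. Nearly all points lie above the line, and many exons with a Psi between 0.2 and 0.8 have a read share near 1.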

How the data were processed

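RNA-seq of the left ventricle of 2 Control and 3 STZ samples was used through 6 deposited MISO tables, each a comparison of 1 library with another. CASAVA 1.8.2, TopHat and the genome build mm9 are named in the submitters' processing notes. The version of MISO and its exon annotation: not given in the sources used here. Psi was deposited by the authors as a fraction rounded to 2 decimals, per the file headers. The Bayes factor was deposited by the authors as a ratio, with 8 infinite values. Read counts were deposited by the authors as counts in 4 classes (inclusion-only, exclusion-only, both, neither), a unit recorded as other. The tables hold 36 further columns of credible bounds and assigned reads that were not used. Values of a library differed between tables in 0 cases.

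Genes of the 240 long exons were named by matching exon and intron lengths to GENCODE M21 (223), by the gene in the files (9), by the skipping junction (5) or by overlap (1), and 2 stayed unnamed. Over all exons with both, the length match gave the same gene as the files in 3113 of 3193 cases (97.5%). Exon positions are in mm9, as deposited, with the first base as 1. Sequences come from the matched GENCODE M21 transcripts, and their coordinates were not converted.

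Psi was clipped to 0.01 to 0.99 and its logit compared between STZ and Control in limma 3.58.1 under R 4.3.3 (two-sided, prior variance following log2 mean informative reads), with Benjamini-Hochberg adjustment over all 4769 exons with at least 10 informative reads in every library. The procedure was also run on simulated data with spreads shuffled among exons, and the outcome is not used as support here. The members and gene lists were chosen with earlier results of these data known. The rule for naming took up to 15 called exons in each direction without overlap of the groups, the 6 longest, the 6 with most reads, those past the count by Bayes factors, and up to 3 with most reads from each list. Other exons of those lists, and Brd2, Edc3, Dbp, Epb41, Plekhm1 and the exons at the length limit, were added after their values were seen. Some exons that the rule takes are not reported here. Alternatives covered the clip, read minimum, scale, prior, read share and leaving out each library.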

Additional observations from a re-analysis of the deposited data

How the results depend on the processing

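The 13 rises and 12 falls kept counts within 1.5 times under a clip at 0.001 (17 and 16), a minimum of 20 informative reads (13 and 12), no minimum (14 and 11), untransformed Psi (17 and 8), a single prior variance (13 and 11) and at least 10 exclusion-only reads (15 and 12). Of the 25 called exons 16 were still called with untransformed Psi, 20 with at least 10 exclusion-only reads, and 23 to 25 under the others. Counting overlapping exons once, an alternative chosen after seeing the data, gave 13 and 11. With the clip at 0.05 there were 11 rises and 3 falls, and 12 of the 25 called exons were still called. The clip sets Psi near 0 and 1 to a common value. Rpl10, Snrnp70 and the 1550-nt exon of Rbm6 kept their logit change and were no longer called. Why these calls were lost was not tested. By the read share there were 21 rises and 30 falls, with 16 of the 25 still called, and the cause was not tested. Leaving out 1 library gave 5 to 11 rises and 6 to 12 falls with fewer samples. Of the 25 called exons 6 were called in every such fit, among them Asb1, Mcee, Rbm4, Socs2 and Wiz. Of these named, all but Wiz have a group with an SD of 0, since Psi is deposited to 2 decimals. The count by Bayes factor was 8, 16 with a difference of at least 0.10, and 8 to 10 without 1 library. No called exon changed direction under these alternatives, except that the clip at 0.05 left a change of 0 at some. Exclusion-only reads were few at long exons, with a median of 3 to 5 per library, and also over all tested exons, with 4 to 5. Their effect on the precision was not tested.

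No paired analysis was possible because the library codes in the tables carry no replicate number of the labels.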
